A study of Homo sapiens with 12 samples.

Results

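Neurotransmitter receptor subunits are the proteins from which cells build their receptors for glutamate, GABA, glycine, acetylcholine and extracellular ATP. Their genes were taken by symbol: the AMPA (GRIA), kainate (GRIK), NMDA (GRIN), delta (GRID) and metabotropic (GRM) glutamate receptors, the GABA-A (GABR) and GABA-B (GABBR) receptors, the glycine receptors (GLRA, GLRB), the nicotinic acetylcholine receptors (CHRN) and the P2X receptors for ATP (P2RX). These patterns matched 75 of 49651 genes with counts. They are 16 nicotinic, 19 GABA-A, 8 metabotropic glutamate, 7 NMDA, 7 P2X, 5 kainate, 5 glycine, 4 AMPA, 2 delta and 2 GABA-B receptor genes.

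Messenger RNA was sequenced from D283 cells, an established medulloblastoma line with amplified MYC. In one group the tyrosine kinase genes ABL1 and ABL2 were genetically inactivated (3 libraries), and the other group was a scrambled control (3 libraries). The sources used here give neither the method of inactivation nor whether the cells were a clone or a population. They also do not say whether each library is a culture of its own, and p-values reflect how far these libraries differ, which may be technical. The 12 samples are these 6 libraries on 2 lanes each, and the lanes were summed.

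Most of these receptors are ion channels that several subunits form together, and which subunits a cell makes sets which receptors it can assemble. NMDA receptors need the GluN1 subunit, encoded by GRIN1, together with a GluN2 or GluN3 subunit. GABA-A receptors usually combine alpha and beta subunits with a gamma or delta subunit, glycine receptors combine alpha subunits with the beta subunit, and metabotropic glutamate and GABA-B receptors signal through G proteins. Granule neurons of the cerebellum, the tissue in which medulloblastoma arises, use many of them.

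Libraries held between 33505903 and 49034159 counts. ABL1 had 62.1, 62.3 and 61.1 CPM (CPM are counts scaled by library size, with edgeR's TMM factors) in the inactivated libraries, against 157, 148 and 154 CPM in the control libraries. ABL2 had 97.6, 112 and 102 CPM in the inactivated libraries, against 144, 136 and 134 CPM in the control libraries. Both genes fell (log2 fold change -1.31 ± 0.043, SE, and -0.41 ± 0.051 by edgeR's quasi-likelihood test, adjusted p 5.4e-15 and 1.3e-06), and for both the groups did not overlap. Of 8 markers of the medulloblastoma line 6 had enough counts for a test, led by OTX2 with 666 ± 11.4 CPM in inactivated and 829.8 ± 16.1 CPM in control cells. OTX2, NEUROD1 and EOMES fell, CRX and MYC rose, SYP did not pass the threshold, and the photoreceptor factor gene NRL had no read. CRX had 95.8 ± 2.87 CPM in inactivated and 51.5 ± 4.51 CPM in control cells. The rise of MYC was small, with 526 ± 29.1 CPM in inactivated and 482 ± 19.2 CPM in control cells, and its groups overlapped. Markers of leukocytes summed to 0.175 to 0.524 CPM in inactivated and 0.374 to 0.478 CPM in control libraries. Markers of astrocytes summed to 172 to 178 CPM in inactivated and 398 to 404 CPM in control libraries. The 3 astrocyte markers of 6 that were tested all fell (GJA1, SLC1A3 and SLC1A2), whereas GFAP had 0 to 3 counts per library, AQP4 0 to 8 and ALDH1L1 none. Of 6 markers of oligodendrocytes 2 were tested and both fell, among them OLIG2, whereas MBP had 0 or 1 count, and MOG and MAG had none. Markers of fibroblasts summed to 33.4 to 36.9 CPM in inactivated and 42.7 to 46.2 CPM in control libraries, with COL1A1 higher, DCN and PDGFRB lower and LUM not past the threshold. Those of endothelial cells summed to 9.66 to 11.02 CPM in inactivated and 4.12 to 4.55 CPM in control libraries, with KDR higher and VWF not past the threshold. The part of these shifts in the receptor results was not tested.

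D283 cells transcribed a minority of the receptor subunit genes at a level that could be compared. Of the 75 genes, 33 (44.0%) passed the filter on low counts and were tested. Another 31 had reads but too few for a test, and 11 had no read in any library. Of all 49651 genes with counts, 14704 passed the filter. Those 49651 include noncoding genes and 5852 further copies of genes on alternate sequences of the genome assembly. The share of protein-coding genes that passed was not computed, so the 44.0% has no like background. Of the tested genes, 26 averaged 1 CPM or more in either group and 7 stayed below that level. The 31 genes with too few reads held between 1 and 41 counts over all 6 libraries, at most 0.257 CPM as a group mean. They include GABRE, GABRP, GABRR3, GLRA3, P2RX6 and CHRNB3, and most others are given with their classes. Without any read were the AMPA subunit GRIA3, the GABA-A subunits GABRD and GABRR1, GABBR1, the metabotropic receptors GRM3 and GRM4, the glycine subunit GLRA2, the nicotinic subunits CHRNA2 and CHRNA6, and P2RX1 and P2RX2. A count of 0 allows up to 3 counts per library, which is 0.0605 to 0.0903 CPM at these depths, for counting error only.

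For 4 genes a low count does not give the level. GABBR1, CHRNB1, CHRNA7 and GABRQ have further copies on alternate sequences of the genome assembly, and reads that fit several copies equally can drop out of a count. Of 1584 protein-coding genes with such copies 862 had no read, against 2699 of 17951 without. TUBB, a tubulin gene that dividing cells use throughout, had 1 count over all libraries. CHRNA7 also shares sequence with its partial duplicate CHRFAM7A. It had 9, 7 and 8 counts in the inactivated libraries, against 3, 5 and 5 in the control libraries, and its alternate copies held another 64 counts over all libraries.

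Per exon length, GABA-A subunits were the most abundant class of receptor transcripts of D283 cells in both groups. TPM (counts per exon length, scaled to the same total in every library, computed from the counts and the deposited lengths) is the scale for all comparisons between genes here. The 19 GABA-A genes summed to 104 ± 2.47 TPM in inactivated and 112 ± 2.99 TPM in control cells (SD, n = 3 each). That was about as much as all other classes together: the 75 genes summed to 207, 215 and 212 TPM in the inactivated libraries, against 213, 210.1 and 199 TPM in the control libraries, and these totals overlapped. The deposited length joins the exons of all transcripts, so genes with many alternative exons, such as GRIA4 and GRIN2B, are understated on this scale.

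The classes given here lay apart between the groups. NMDA subunits summed to 4.85 ± 0.37 TPM in inactivated and 23.4 ± 1.25 TPM in control cells. AMPA subunits summed to 0.342 ± 0.17 TPM in inactivated and 1.57 ± 0.158 TPM in control cells, and kainate subunits to 11.5 ± 0.441 TPM in inactivated and 20.5 ± 0.649 TPM in control cells. Nicotinic subunits summed to 27.9 ± 0.886 TPM in inactivated and 14.9 ± 0.577 TPM in control cells. Glycine subunits summed to 16.996 ± 0.255 TPM in inactivated and 10.5 ± 1.45 TPM in control cells, but without GLRA4, a transcribed pseudogene, the other 4 glycine genes summed to 6.13 ± 0.0711 TPM in inactivated and 9.95 ± 1.29 TPM in control cells. P2X subunits summed to 5.79 ± 0.443 TPM in inactivated and 3.59 ± 0.523 TPM in control cells. In each of these 6 classes the inactivated libraries all lay on one side of the control libraries. Of all single genes tested, 63.2% likewise did not overlap between the groups by CPM. No such share was computed for sums of genes, so the class sums have no like background. Some sums are largely 1 gene. GRIA1 held 97.5% of AMPA TPM in inactivated and 94.8% in control cells, and P2RX4 92.3% and 95.5% of P2X TPM. GRIN2A held 81.3% of NMDA TPM in inactivated and 96.5% in control cells. No test of the class sums is given. An exact permutation test of 3 libraries against 3 cannot go below 0.10.

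**Figure D1:**
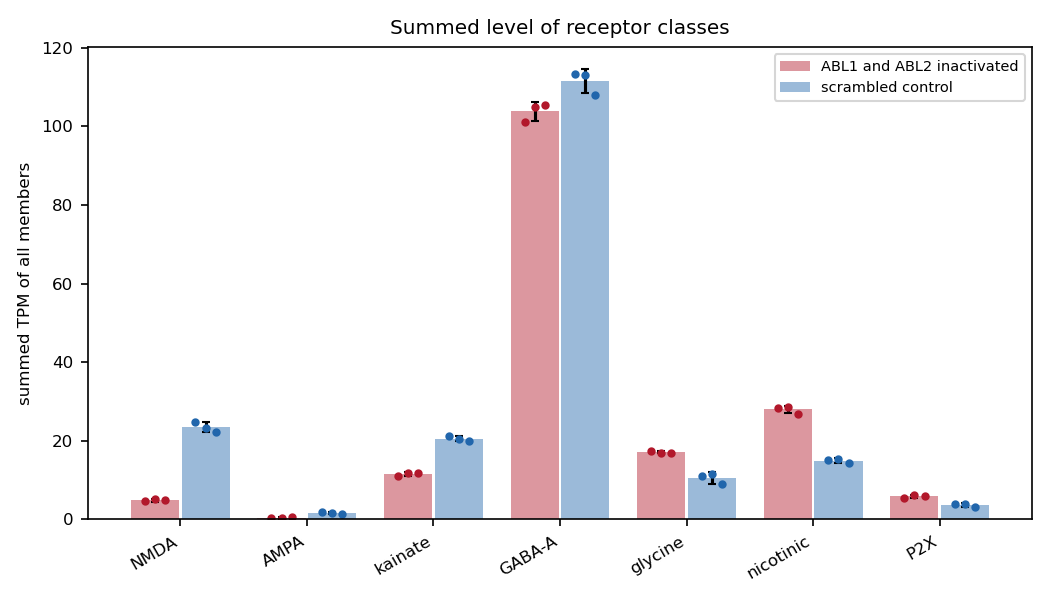
Summed TPM of the member genes of 7 receptor classes, with bars for the mean of 3 libraries, lines for the SD and points for the libraries; inactivated cells are left of control cells. NMDA and kainate bars are lower and nicotinic bars higher in inactivated cells, the glycine bar is higher only with GLRA4 (6.13 TPM in inactivated and 9.95 TPM in control cells without it), and the GABA-A class is the tallest in both groups.

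Of the 33 tested subunit genes, 18 fell, 8 rose and 7 did not pass the threshold, an adjusted p of 0.05 by edgeR's quasi-likelihood test with Benjamini-Hochberg correction over all 14704 genes tested. Over those genes 29.7% fell and 29.6% rose, 59.3% in all. The shares among the tested subunit genes were 54.5% lower and 24.2% higher. A gene low in one group enters the test through the other, so these shares do not describe the 75 genes. The groups did not overlap for 26 of the 33, against 63.2% of all genes tested. The log2 fold change had a median of -0.37 over the tested subunits and 0.0031 over all tested genes, and without its sign 0.67 and 0.27. Of the 26 changed subunits 13 differed by at least 2-fold, 9 of them lower and 4 higher. The share of all tested genes that changed by at least 2-fold was not computed, so this count has no background. Tested against a fold of 1.5 in place of no change (edgeR's glmTreat), 9 subunit genes were lower and 4 higher, against 7.83% and 7.67% of all genes.

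**Figure D2:**
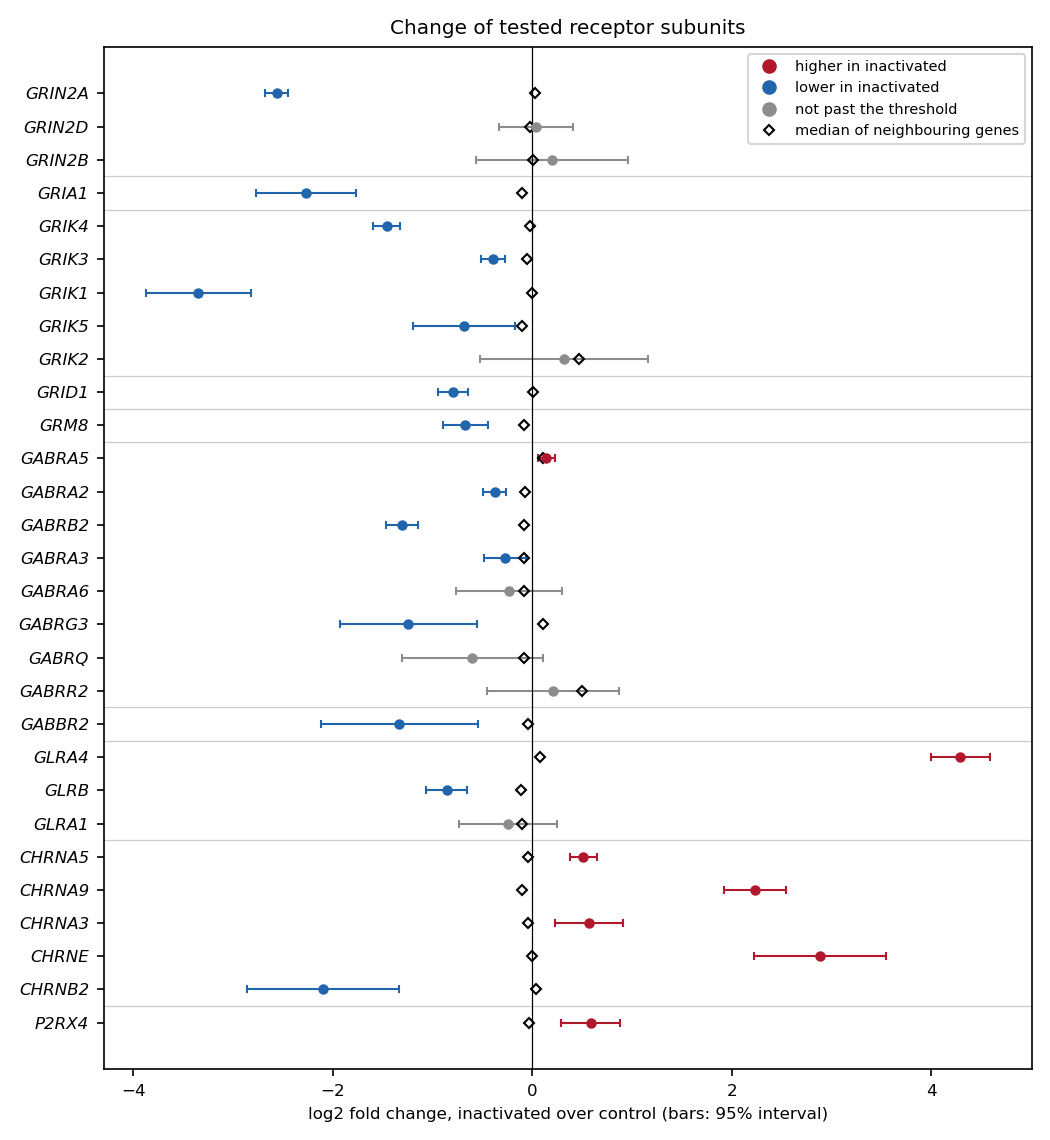
Log2 fold change (inactivated over control) of 29 tested subunit genes by class, with 95% intervals; open diamonds give the median log2 fold change of up to 50 tested genes on each side of the gene on its chromosome. Glutamate channel subunits lie left of 0 or span it, while CHRNA9, CHRNE and GLRA4 lie more than 1 unit to the right.

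GRIN2A is the only NMDA subunit gene called lower, and GRIN2D is its relative that did not pass. GABRB2 is a GABA-A subunit that fell, and CHRNA9 is a nicotinic subunit that rose. The promoters of these 4 genes, which moved differently, are printed here. Each is the stretch from 250 bases before to 50 bases after the start of a RefSeq transcript on GRCh38.p14, which may not be the start used in D283 cells: chr16:10182018-10182317 on the minus strand for GRIN2A, chr19:48393418-48393717 on the plus strand for GRIN2D, chr5:161546676-161546975 on the minus strand for GABRB2 and chr4:40335083-40335382 on the plus strand for CHRNA9. Capitals mark matches on either strand to GGGCGG (the GC box bound by SP1), CANNTG (the E-box of basic helix-loop-helix factors), TAATCC (the site of OTX and CRX factors) and TATAAA (the TATA box).
GRIN2A: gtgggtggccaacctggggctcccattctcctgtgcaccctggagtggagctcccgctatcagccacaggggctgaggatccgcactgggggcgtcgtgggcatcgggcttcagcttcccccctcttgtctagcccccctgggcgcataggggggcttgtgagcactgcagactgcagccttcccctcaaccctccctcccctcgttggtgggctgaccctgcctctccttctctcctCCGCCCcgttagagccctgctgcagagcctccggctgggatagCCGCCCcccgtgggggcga
GRIN2D: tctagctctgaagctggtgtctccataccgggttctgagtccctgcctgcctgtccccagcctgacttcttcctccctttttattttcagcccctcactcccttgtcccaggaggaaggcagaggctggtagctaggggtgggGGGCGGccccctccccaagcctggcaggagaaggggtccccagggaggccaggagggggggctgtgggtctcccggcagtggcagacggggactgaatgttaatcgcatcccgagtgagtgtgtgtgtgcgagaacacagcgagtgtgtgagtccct
GABRB2: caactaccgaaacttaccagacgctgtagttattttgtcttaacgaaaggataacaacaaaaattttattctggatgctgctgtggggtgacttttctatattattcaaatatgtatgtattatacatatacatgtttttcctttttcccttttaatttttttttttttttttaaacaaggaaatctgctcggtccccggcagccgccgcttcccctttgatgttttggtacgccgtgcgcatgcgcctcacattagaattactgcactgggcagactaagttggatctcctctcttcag
CHRNA9: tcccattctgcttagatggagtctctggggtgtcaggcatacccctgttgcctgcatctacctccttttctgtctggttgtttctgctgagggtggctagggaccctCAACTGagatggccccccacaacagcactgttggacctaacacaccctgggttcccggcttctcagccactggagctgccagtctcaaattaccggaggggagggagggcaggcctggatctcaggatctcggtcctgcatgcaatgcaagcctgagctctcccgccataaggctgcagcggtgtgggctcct
The GRIN2A promoter held 2 GC boxes in 68.3% G and C, that of GRIN2D 1 in 62.3%, that of GABRB2 none of the 4 motifs in 39.0%, and that of CHRNA9 1 E-box in 58.7%. Of 35114 RefSeq promoters of the same length, 44.95% held GGGCGG, 68.68% CANNTG, 6.36% TAATCC and 11.53% TATAAA. RefSeq promoters were matched to 51 of the 75 genes, 71 promoters in all, of which 38 held GGGCGG, 50 CANNTG, 3 TAATCC and 6 TATAAA.

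Among the NMDA receptor genes GRIN2A fell and no other passed the threshold. GRIN2A, the GluN2A subunit on chromosome 16 at 9753404 to 10182908 (minus strand, GRCh38.p14), had 19.8, 22.5 and 20.9 CPM in the inactivated libraries, against 132, 122 and 120 CPM in the control libraries. The groups lay far apart, with 21.1 ± 1.32 CPM in inactivated and 125 ± 6.41 CPM in control cells, and GRIN2A fell by 83.1% in inactivated cells (log2 fold change -2.56 ± 0.055, 95% interval -2.68 to -2.45, edgeR adjusted p 1.5e-17). GRIN2D, the GluN2D subunit typical of early development, had 1.53 ± 0.0374 CPM in inactivated and 1.496 ± 0.0963 CPM in control cells (log2 fold change 0.04, 95% interval -0.33 to 0.41). GRIN2B, the GluN2B subunit, had 0.347 ± 0.0804 CPM in inactivated and 0.308 ± 0.0963 CPM in control cells, with an interval of -0.57 to 0.96.

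GRIN1, the subunit that every NMDA receptor needs, was close to the counting floor in both groups. It had 4, 8 and 4 counts in the inactivated libraries, against 2, 3 and 0 counts in the control libraries, and was not tested. GRIN1 made up 1.39% ± 0.21 of the summed TPM of NMDA genes in inactivated and 0.1% ± 0.1 in control cells. GRIN2A made up 81.3% ± 0.33 in inactivated and 96.5% ± 0.22 in control cells. The shares of GRIN1 rest on these few counts and on a sum that was lower in inactivated cells. GRIN1 itself had 0.0678 ± 0.0156 TPM in inactivated and 0.0242 ± 0.0224 TPM in control cells. GRIN2C, GRIN3A and GRIN3B had 7, 3 and 9 counts over the inactivated libraries, against 4, 2 and 9 over the control libraries.

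Of the AMPA receptor genes, which carry most fast excitatory signalling in the brain, only GRIA1 had enough reads to be tested, and it fell. GRIA1 had 0.684, 0.423 and 1.17 CPM in the inactivated libraries, against 3.995, 3.37 and 3.13 CPM in the control libraries (log2 fold change -2.27 ± 0.24, edgeR adjusted p 1.3e-07). GRIA2, whose subunit makes AMPA receptors impermeable to calcium after RNA editing, had 1, 0 and 1 counts in the inactivated libraries, against 3, 8 and 8 counts in the control libraries. GRIA4 had 3 counts over the inactivated libraries and 10 over the control libraries.

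Kainate receptor genes were the glutamate channel class with the most members expressed: all 5 were tested, 4 fell and GRIK2 did not pass. GRIK4, which encodes a high-affinity subunit that needs a partner to form channels, had 11.6, 11.0 and 12.6 CPM in the inactivated libraries, against 33.1, 31.6 and 32.0 CPM in the control libraries (log2 fold change -1.46 ± 0.064, edgeR adjusted p 3.8e-13). GRIK3, a low-affinity subunit that can form channels by itself, had 22.8, 25.3 and 23.7 CPM in the inactivated libraries, against 32.8, 30.9 and 30.6 CPM in the control libraries (-0.39 ± 0.058, adjusted p 9.7e-06). Their order by TPM differed between the groups: GRIK3 held 62.7% ± 2.26 of the kainate TPM in inactivated and 44.6% ± 0.396 in control cells, and GRIK4 33.0% ± 2.28 in inactivated and 48.9% ± 0.552 in control cells.

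GRIK1 had the largest fitted fall of all tested subunit genes. It had 0.164, 0.202 and 0.263 CPM in the inactivated libraries, against 2.14, 2.07 and 2.23 CPM in the control libraries (log2 fold change -3.35 ± 0.25, edgeR adjusted p 1.1e-09). On the other strand LOC105372768, which shares 265 of its exon bases, rose, with 0.359 ± 0.019 CPM in inactivated and 0.125 ± 0.0627 CPM in control cells. GRIK1-AS2, which shares 45 bases, did not pass the threshold, with 2.48 CPM in inactivated and 2.85 CPM in control cells. GRIK5, a high-affinity subunit like GRIK4, had 0.602, 0.867 and 0.672 CPM in the inactivated libraries, against 1.43, 1.12 and 0.933 CPM in the control libraries (-0.69 ± 0.24, adjusted p 0.022). The GRIK5 call was lost without inactivated replicate 1 (adjusted p 0.0734), inactivated replicate 3 (0.0596) or control replicate 1 (0.147), with DESeq2 (0.098) and in lane 1 alone (0.227). GRIK2 had 0.313 ± 0.105 CPM in inactivated and 0.243 ± 0.052 CPM in control cells.

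The delta receptors bind D-serine and glycine rather than glutamate and act as synapse organisers. GRID1 had 12.8, 11.3 and 11.6 CPM in the inactivated libraries, against 21.05, 19.6 and 21.3 CPM in the control libraries (log2 fold change -0.80 ± 0.07, edgeR adjusted p 1.0e-08), so GRID1 fell and its groups did not overlap.

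Of the metabotropic glutamate receptors, GRM8, a receptor coupled to Gi, fell. It had 5.82, 4.33 and 4.9982 CPM in the inactivated libraries, against 7.99, 7.81 and 8.19 CPM in the control libraries (log2 fold change -0.67 ± 0.11, edgeR adjusted p 2.3e-05). GRM2 had 16 counts over the inactivated and 21 over the control libraries, GRM7 had 1 over the inactivated and 12 over the control libraries, and GRM5 and GRM6 had at most 2 in either group.

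**Figure D3:**
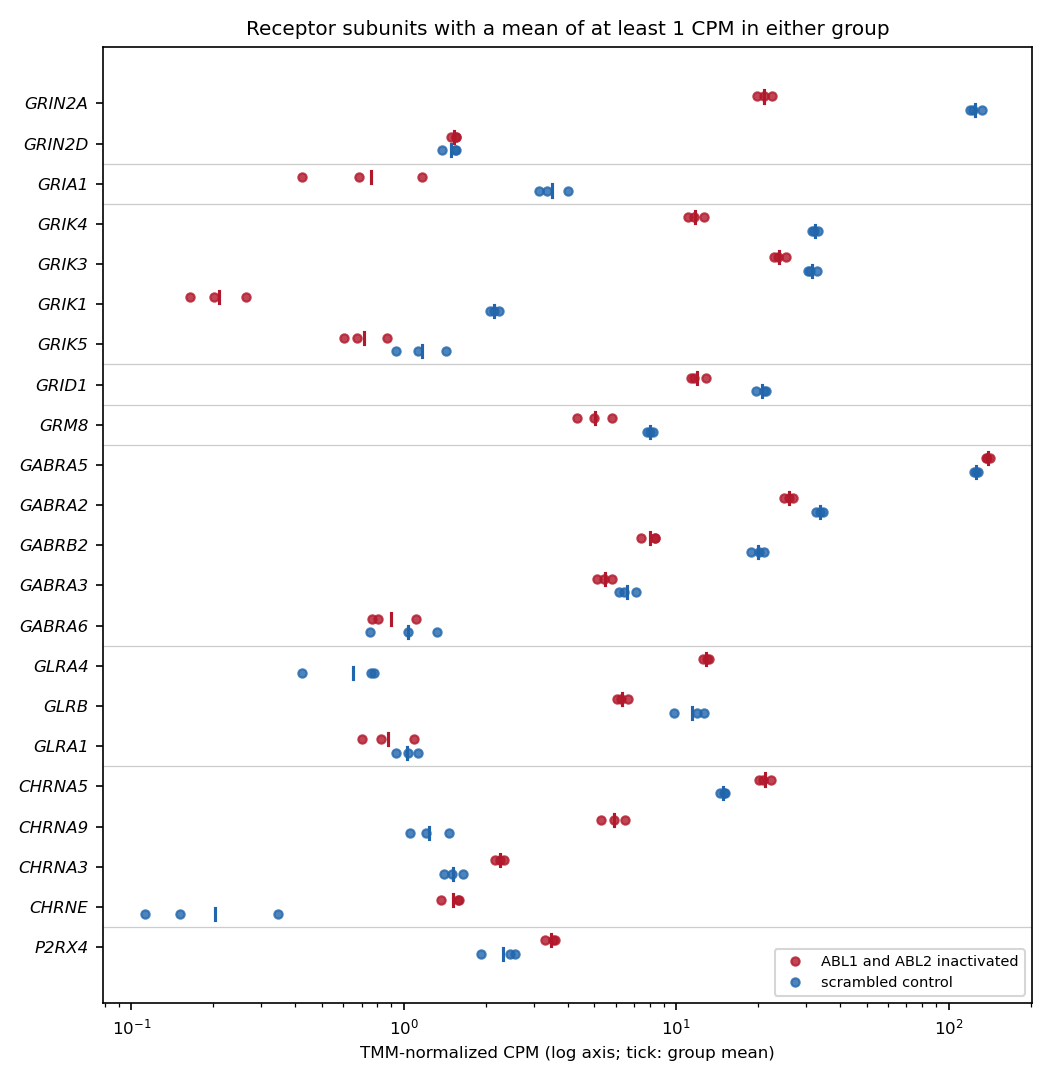
TMM-normalized CPM (log axis) of 22 subunit genes that averaged 1 CPM or more in either group; each point is a library, short vertical lines are group means, and inactivated libraries stand above control libraries of the same gene. The points of the groups are apart for most genes and mixed for GRIN2D, GABRA6 and GLRA1.

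Of 19 GABA-A receptor genes 10 were tested, 6 fell, GABRA5 rose and 3 did not pass. GABRA5, an alpha subunit of extrasynaptic receptors, had 137, 139 and 142 CPM in the inactivated libraries, against 128, 126 and 124 CPM in the control libraries. This was 10.2% higher (log2 fold change 0.14 ± 0.04, edgeR adjusted p 0.0058), close to the median of 0.11 of its neighbouring genes.

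GABRG3, a gamma subunit whose gene neighbours GABRA5 on chromosome 15, had 0.284 ± 0.0759 CPM in inactivated and 0.658 ± 0.123 CPM in control cells and fell (log2 fold change -1.24 ± 0.33, edgeR adjusted p 0.003), although it had too few counts for a test in lane 1 alone. It was the only gamma subunit gene tested, and GABRG1 had 1 count over all libraries. The delta subunit gene GABRD had none. The alpha subunit transcripts summed to 63.8 ± 1.64 TPM in inactivated and 63.4 ± 1.12 TPM in control cells, and these sums overlapped.

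GABRB2 on chromosome 5, a beta subunit of mature synapses, had 7.41, 8.37 and 8.36 CPM in the inactivated libraries, against 20.1, 20.9 and 18.8 CPM in the control libraries (log2 fold change -1.31 ± 0.075, edgeR adjusted p 2.2e-11). GABRA6, which lies beside GABRB2 and marks mature cerebellar granule neurons, had 0.894 ± 0.189 CPM in inactivated and 1.04 ± 0.285 CPM in control cells and did not pass (95% interval of the log2 fold change -0.76 to 0.30). Genes around GABRB2 had -0.09 as their median log2 fold change.

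Among alpha subunits GABRA2 and GABRA3 fell. GABRA2 on chromosome 4 had 24.8, 26.0 and 26.9 CPM in the inactivated libraries, against 34.5, 33.7 and 32.5 CPM in the control libraries (log2 fold change -0.37 ± 0.054, edgeR adjusted p 8.5e-06), while its neighbours GABRG1, GABRA4 and GABRB1 held 1 to 6 counts over all libraries. GABRA3 on the X chromosome had 5.44, 5.14 and 5.82 CPM in the inactivated libraries, against 6.16, 6.42 and 7.13 CPM in the control libraries (-0.27 ± 0.1, adjusted p 0.0263). Its call was lost without inactivated replicate 2 (adjusted p 0.0816) or control replicate 3 (0.116), with DESeq2 (0.111), in lane 1 alone (0.148) and in lane 2 alone (0.0535). GABRA5 held 78.2% ± 0.68 of alpha subunit TPM in inactivated and 68.99% ± 0.632 in control cells. GABRQ and GABRR2 were tested and did not pass, with 0.373 and 0.497 CPM in inactivated and 0.567 and 0.438 CPM in control cells.

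**Figure D4:**
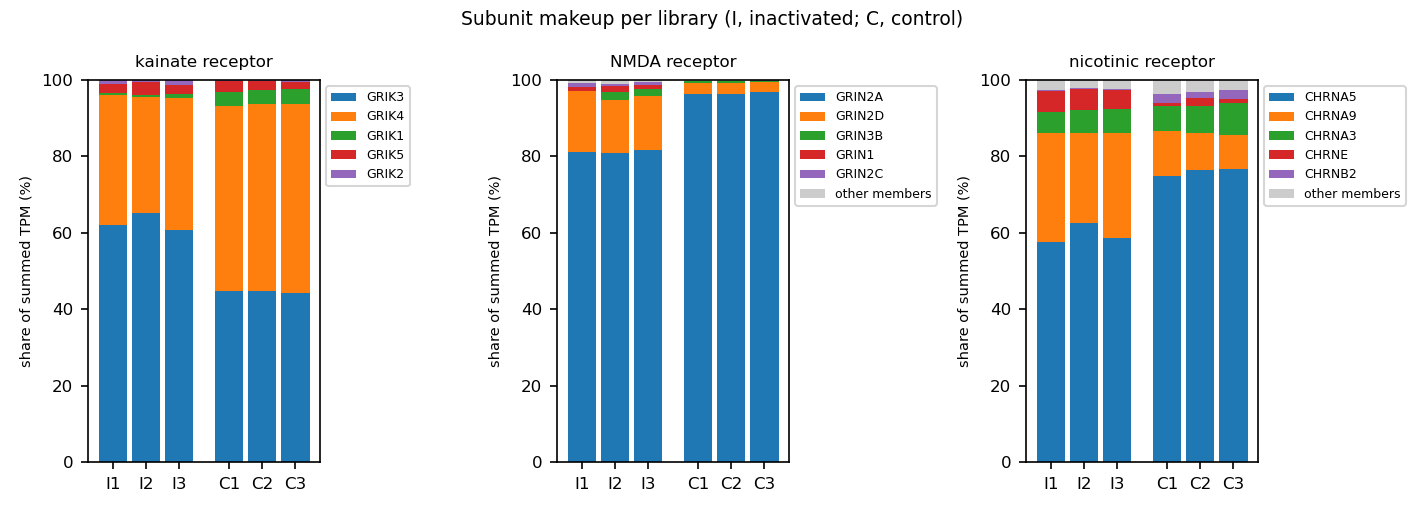
Share of each subunit in the summed TPM of the kainate, NMDA and nicotinic classes, in percent, for each of the 3 inactivated (I) and 3 control (C) libraries; the 5 largest members are coloured and the others are grey. In inactivated cells GRIK3, GRIN2D and CHRNA9 take larger shares and GRIK4, GRIN2A and CHRNA5 smaller ones in every library. A share is not the gene's own change: CHRNA5 rose, GRIK3 fell and GRIN2D did not pass the threshold.

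Of the GABA-B receptor genes GABBR2, which couples to G proteins, was low and fell, with 0.189 ± 0.0872 CPM in inactivated and 0.503 ± 0.07 CPM in control cells (log2 fold change -1.33 ± 0.38, edgeR adjusted p 0.0051). GABBR1, which binds GABA, is listed at 0, as are its 7 alternate copies, and its level cannot be read from these counts.

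The glycine receptor genes split. GLRB, which anchors glycine receptors at synapses, had 6.04, 6.25 and 6.66 CPM in the inactivated libraries, against 11.9, 12.6 and 9.78 CPM in the control libraries (log2 fold change -0.86 ± 0.097, edgeR adjusted p 3.2e-07). GLRA4 had 13.2, 12.6 and 12.9 CPM in the inactivated libraries, against 0.76, 0.778 and 0.421 CPM in the control libraries (4.29 ± 0.14, adjusted p 6.2e-15), which was 19.8-fold higher. RefSeq annotates human GLRA4, on the X chromosome at 103705494 to 103728495, as a transcribed pseudogene. TMEM31, which overlaps 2.2% of its exon bases on the other strand, also rose, with 1.22 CPM in inactivated and 0.412 CPM in control cells, and genes around it had 0.08 as their median log2 fold change. GLRA1, the adult alpha subunit, did not pass, with 0.874 ± 0.2 CPM in inactivated and 1.03 ± 0.0962 CPM in control cells.

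Nicotinic receptor genes were the channel class with the most rises: of 16 genes 5 were tested, 4 rose and CHRNB2 fell. CHRNA5, an accessory subunit of neuronal receptors, had 20.9, 22.3 and 20.1 CPM in the inactivated libraries, against 14.9, 15.1 and 14.5 CPM in the control libraries (log2 fold change 0.51 ± 0.064, edgeR adjusted p 1.3e-06). CHRNA3, an alpha subunit of ganglion receptors whose gene overlaps the end of CHRNA5 by 198 bases on the other strand, had 2.16, 2.26 and 2.34 CPM in the inactivated libraries, against 1.41, 1.5 and 1.66 CPM in the control libraries (0.57 ± 0.16, adjusted p 0.0054). CHRNB4, the beta subunit of the same cluster within 96.1 kb of chromosome 15, had 7 counts over the inactivated and 17 over the control libraries and was not tested.

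CHRNA9, a subunit of receptors in the hair cells of the inner ear, had 6.48, 5.28 and 5.93 CPM in the inactivated libraries, against 1.46, 1.21 and 1.05 CPM in the control libraries (log2 fold change 2.23 ± 0.15, edgeR adjusted p 2.0e-10). Its usual partner CHRNA10 had 9, 7 and 9 counts in the inactivated libraries, against 5, 3 and 2 counts in the control libraries, too few for a test. CHRNE, a subunit of the adult muscle receptor, had 1.59, 1.59 and 1.37 CPM in the inactivated libraries, against 0.113, 0.346 and 0.151 CPM in the control libraries (2.89 ± 0.32, adjusted p 2.2e-07), and a log2 fold change of 3.501 without control replicate 2, 2.22 in lane 1 alone and 3.96 in lane 2 alone. Exons of MINK1, which rose with a log2 fold change of 0.44, cover 10.0% of its exon bases on the other strand, and those of C17orf107, with 17 counts over all libraries, 34.1%. The other muscle subunits CHRNA1, CHRND and CHRNG held 28, 5 and 2 counts over all libraries.

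CHRNB2, the main beta subunit of brain receptors, had 0.191, 0.161 and 0.117 CPM in the inactivated libraries, against 0.788, 0.49 and 0.783 CPM in the control libraries (log2 fold change -2.10 ± 0.36, edgeR adjusted p 6.1e-05). Its common partner CHRNA4 had 3 counts over the inactivated and 16 over the control libraries. No beta subunit gene of the class thus reached 1 CPM in either group, although CHRNB1 has an alternate copy.

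Of the P2X receptor genes only P2RX4, a widely expressed ATP-gated channel found largely in lysosomes, was tested, and it rose. It had 3.31, 3.59 and 3.54 CPM in the inactivated libraries, against 2.45, 2.56 and 1.93 CPM in the control libraries (log2 fold change 0.59 ± 0.14, edgeR adjusted p 0.0015). P2RX7, its neighbour within 101.2 kb of chromosome 12, had 4 counts over the inactivated libraries and 1 over the control libraries.

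Genes that work with these receptors were compared as 5 lists, of which 54 of 82 genes were tested; 26 fell, 11 rose and 17 did not pass. Over all genes tested 29.7% fell and 29.6% rose, and the counts of each list stand against these shares. Of 17 auxiliary subunits of glutamate receptors 10 were tested, 6 fell and 2 rose (median log2 fold change -0.43). CACNG2, the AMPA receptor auxiliary subunit stargazin, fell to 1.43 ± 0.202 CPM in inactivated cells, against 4.48 ± 0.567 CPM in control cells, and SHISA9 to 19.9 ± 0.154 CPM, against 28.9 ± 0.566 CPM (edgeR adjusted p 2.6e-08 and 9.0e-08). FRRS1L, an assembly factor of AMPA receptors, had no read in the inactivated libraries, against 61, 37 and 40 counts in the control libraries. It was at least 17.3-fold lower, taking 3 counts per library as the floor. The 2 genes of the list that rose were NETO2 and OLFM2. NETO2 had 259 ± 3.38 CPM in inactivated and 198 ± 6.99 CPM in control cells (edgeR adjusted p 1.6e-07). OLFM2 had 12.4 ± 1.24 CPM in inactivated and 7.34 ± 0.667 CPM in control cells. The whole list summed to 301 to 307 CPM in inactivated and 250 to 262 CPM in control libraries, most of it NETO2. Of 20 excitatory scaffold genes 14 were tested, 7 fell and 2 rose (median -0.21). DLG1 fell to 122 ± 3.96 CPM in inactivated cells, against 169 ± 3.83 CPM in control cells, and HOMER1, which links metabotropic glutamate receptors to the scaffold, to 58.5 ± 1.09 CPM, against 87.4 ± 2.39 CPM. DLG3 rose to 6.67 ± 0.515 CPM in inactivated cells, against 2.49 ± 0.0301 CPM in control cells.

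On the inhibitory side 11 of 14 partner genes were tested, 5 fell and 2 rose (median log2 fold change -0.12). KCTD8, an auxiliary subunit of GABA-B receptors, fell to 2.03 ± 0.434 CPM in inactivated cells, against 5.19 ± 0.147 CPM in control cells, and PLCL1 to 0.419 ± 0.0879 CPM, against 1.09 ± 0.16 CPM. Of 12 genes for nicotinic receptor assembly and modulation 7 were tested, 3 rose and 2 fell (median 0.33). Those that rose were MUSK and AGRN, the kinase and the agrin signal that gather nicotinic receptors at the nerve-muscle junction, and LYPD6B, with 1.62 ± 0.362, 11.0 ± 1.06 and 0.508 ± 0.143 CPM in inactivated and 0.688 ± 0.273, 5.03 ± 0.469 and 0.0884 ± 0.0612 CPM in control cells. LYPD1 and LYPD6 fell, with 9.67 ± 0.945 and 2.94 ± 0.42 CPM in inactivated and 11.8 ± 0.47 and 4.47 ± 0.404 CPM in control cells. LRP4 and RIC3 did not pass the threshold. Of 19 genes for making transmitters and loading them into vesicles 12 were tested, 6 fell and 2 rose (median -0.15). GLUL, glutamine synthetase, rose to 2419 ± 53.1 CPM in inactivated cells, against 1320 ± 8.96 CPM in control cells, and GLS2, a glutaminase, to 3.3 ± 0.463 CPM, against 0.337 ± 0.0841 CPM. PHGDH, the first enzyme of serine synthesis, fell to 126 ± 6.5 CPM in inactivated cells, against 165 ± 3.74 CPM in control cells. GAD1, which makes GABA, had 1 count over the inactivated and 5 over the control libraries.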

How the data were processed

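Per the labels' protocols, total RNA of D283 cells was extracted, its mRNA enriched and sequenced as 50 bp read pairs (NovaSeq). The submitters' processing notes name STAR 2.7.2b, featureCounts 1.6.3, DESeq2 1.36.0 and the build GRCh38.p14. The authors deposited raw counts per gene and lane. The deposited exon length of each gene, in bases, is the other unit of the table and was used only for TPM. The strand setting and the handling of reads with several alignments are not given in the sources used here. Of 49677 genes 26 had blank counts and were left out, and none of these matched the receptor symbols.

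Counts of a library's 2 lanes were added. Low genes were removed by filterByExpr (min.count 10, min.total.count 15), and the rest scaled by TMM and compared with edgeR 4.0.16 (quasi-likelihood F test, two-sided) over all 6 libraries. A gene is said to rise, fall or change at a Benjamini-Hochberg adjusted p under 0.05 over all genes tested. Group means carry the SD over 3 libraries, and log2 fold changes the SE. Intervals of fold changes include the spread between libraries, and the floor of 3 counts covers counting error only. The other settings were RLE scaling, no filter, DESeq2 1.42.0, limma-voom (limma 3.58.1), each lane alone, a fold of 1.5 as the null, and leaving out each library.

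The receptor genes and the lists were chosen with earlier results of these data known. The rule for named genes took ABL1 and ABL2, every receptor gene averaging 1 CPM in either group (per library), the other tested ones by level or change, untested ones by their reads, and up to 3 changed genes with the lowest p from each partner list. Marker genes, overlapping genes, TUBB, CHRFAM7A, GAD1, NETO2, OLFM2, LYPD1, LYPD6, LRP4 and RIC3 were named after their values were seen. A few genes that this rule takes are not reported here; they stay in the counts and in the class sums.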

Additional observations from a re-analysis of the deposited data

How the results depend on the processing

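Depth limits the low genes: 33 receptor genes passed the filter, 64 had at least 1 read and would be tested without a filter, and 26 or 27 passed with lane 1 or lane 2 alone. The 26 calls (18 lower, 8 higher) were the same genes with RLE scaling and with limma-voom. Against a fold of 1.5 as the null, 9 receptor genes were lower and 4 higher, while over all genes 15.5% were called, and 7 partner genes were lower and 7 higher. Leaving out 1 library gave 17 to 18 lower and 8 higher receptor genes, and 23 to 28 lower and 10 to 12 higher partner genes. Without a filter GRM7, GRIA2 and CHRNA4 were also called lower and P2RX3 higher, and with DESeq2 GRIA2. In lane 2 alone CHRNA3 missed the threshold (adjusted p 0.077), CHRNB2 and GABBR2 had too few counts for a test in either lane alone and GABRG3 in lane 1 alone, and GRIK5 and GABRA3 were lost under the settings given with their values. Neither GRIN2D nor GRIN2B was called under any of these settings, but their signs turned. The log2 fold change of GRIN2D became -0.0704 in lane 1 alone and ran from -0.0215 (without control replicate 3) to 0.0707 over the libraries left out, and that of GRIN2B from -0.0135 (without control replicate 3) to 0.428; the cause was not tested. The ratio of summed TPM of 9 classes (GABA-B was not run) and of all members, recomputed by lane and without each library as an addition after seeing the data, moved by less than its spread in all 80 cases. With GLRA4 left out, also chosen after seeing the data, the glycine ratio became 0.616, since GLRA4 holds most of that class in inactivated cells. No paired analysis was possible because the labels give the libraries of the groups no shared numbers.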

Other observations

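The lanes of GRIA1 were uneven in inactivated libraries. Inactivated replicate 1 had 21 counts in lane 1 and 4 in lane 2, replicate 2 had 18 and 3, and replicate 3 had 17 and 23, whereas the control libraries had 70 and 72, 63 and 54, and 47 and 57.

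Several receptor genes too low for a test had their counts mostly in one group. Those given here were picked by their counts and were not tested. The counts are not scaled for depth, and inactivated replicate 2 was the deepest library with 49034159 counts. P2RX5 had 5, 14 and 12 counts in the inactivated libraries, against 4, 2 and 4 counts in the control libraries, and 68.4% of its exon bases are shared with the readthrough gene P2RX5-TAX1BP3. P2RX3 had 3, 6 and 7 counts in the inactivated libraries, against 2, 0 and 0 counts in the control libraries. GRM7 had 0, 0 and 1 count in the inactivated libraries, against 3, 5 and 4 counts in the control libraries.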
